A study of Rattus norvegicus with 6 samples.

Results

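The 6 genes described here are the EGR transcription factor genes Egr1, Egr2, Egr3 and Egr4 and the genes of the corepressors that bind EGR proteins, Nab1 and Nab2. They were chosen by name, with earlier results of these data known. Each was taken from the probe sets that the platform annotation assigns to exactly 1 gene symbol. Each of the 6 genes had 1 such probe set, so no choice between probe sets arose, among 29214 probe sets and 14506 named genes in all. Levels were measured on 6 rat Affymetrix arrays of RBL-2H3, a rat basophilic leukaemia line used as a mast cell model, and the cells of all 3 groups stably expressed wild-type Dectin-1, a receptor for beta-glucans. Control cells (2 arrays) received no stimulus, a further 2 arrays read cells that had met curdlan, a beta-glucan particle, and the last 2 read cells given R406, which inhibits the kinase Syk, before curdlan. The sources used here give no dose, no time, no species of the receptor construct and no number of clones, and no array of R406 without curdlan was analysed here. Nothing in the labels ties the arrays to separate cultures, and the p-values therefore cover only array-to-array spread, possibly technical.

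EGR proteins are immediate early transcription factors: their genes are switched on within minutes of a signal without new protein synthesis, and their C2H2 zinc fingers bind GC-rich DNA. A well-described route to them runs from a tyrosine kinase such as Syk through Ras and ERK to ETS-family cofactors that sit with serum response factor (SRF) on CArG boxes in the promoter. NAB1 and NAB2 bind EGR proteins and recruit repressor complexes. NAB1 is usually described as constitutive and NAB2 as itself inducible by EGR proteins, which makes NAB2 a feedback inhibitor. In mast cells EGR factors are known as early products of IgE receptor stimulation.

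The labelled cell type was checked against its markers. Of 13 measured mast cell markers 10 had a mean signal above the median of all values, among them the IgE receptor genes Ms4a2 and Fcer1a at 13.51 and 12.81 in control arrays, while the tryptase genes Tpsab1 and Tpsb2 and the serotonin-synthesis gene Tph1 lay below it. Markers above that median were 1 of 6 for macrophages, 0 of 5 for T cells, 1 of 2 for B cells, 3 of 5 for fibroblasts and 1 of 4 for epithelia. Of these 35 markers 1 was called with curdlan and 1 under R406, in each case Tph1. Array medians lay between 7.204 and 7.241 log2 units, and the median change of all probe sets was -0.01 with curdlan, 0.00 for R406 plus curdlan against curdlan and -0.01 for R406 plus curdlan against control.

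The promoters are shown first because the route outlined above is described as acting through CArG boxes, and those of Egr1 and Egr2 can be read in the letters. Whether that route acts on these genes in these cells was not tested. RefSeq windows of 300 bases (250 before and 50 after the transcription start, build GRCr8) matched 5 of the 6 genes, all but Egr3. The stretches of 180 bases that end at the base before the start are given for Egr1, Egr2 and Egr4, 5′ to 3′ on the strand of the gene. Capitals mark CArG boxes (CC, then 6 letters A or T, then GG) and the letters CGTCA, which are the core of a cyclic AMP response element (CRE), TGACG, read on the other strand.

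Egr1 (chr18:26736898-26737077, plus strand): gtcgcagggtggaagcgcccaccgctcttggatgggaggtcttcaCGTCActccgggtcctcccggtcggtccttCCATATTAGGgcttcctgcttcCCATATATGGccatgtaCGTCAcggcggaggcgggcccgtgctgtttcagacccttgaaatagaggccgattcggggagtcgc

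Egr2 (chr20:21054442-21054621, minus strand): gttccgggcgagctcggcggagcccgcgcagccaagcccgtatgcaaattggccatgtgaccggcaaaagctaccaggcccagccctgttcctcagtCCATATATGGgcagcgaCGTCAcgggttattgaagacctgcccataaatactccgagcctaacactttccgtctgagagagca

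Egr4 (chr4:119607818-119607997, minus strand): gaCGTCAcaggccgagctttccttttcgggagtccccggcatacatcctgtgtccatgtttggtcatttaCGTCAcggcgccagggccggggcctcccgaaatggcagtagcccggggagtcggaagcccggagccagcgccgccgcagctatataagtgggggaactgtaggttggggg

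Egr1 held 2 CArG boxes, at 105 to 96 and at 83 to 74 bases before the start, and Egr2 held 1, at 83 to 74 bases before the start. The second box of Egr1 and the box of Egr2 had the same letters at the same distance, and in both genes a CRE core followed at 66 to 62 bases before the start. Egr4 had no exact CArG match in its window and had CRE cores at 178 to 174 and at 110 to 106 bases before the start. Before the second of these cores, at the same spacing as in Egr1 and Egr2, it had ccatgtttgg, 1 letter off the CArG pattern. This was seen by reading the letters, and such near matches were not searched for or counted over all windows. Over 33469 RefSeq promoter windows of the same length, 1.64% held at least 1 CArG box, 0.0209% held 2 or more, and 21.2% held at least 1 CRE core, both strands searched. The full CRE, TGACGTCA, matched none of the 5 windows and 1.83% of all windows. The CRE core was added to the search after these sequences had been read.

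The 250 bases before the start of Nab1 are shown because they held matches to the EGR site, GCGNGGGCG, which capitals mark together with 1 CGTCA.

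Nab1 (chr9:56545392-56545641, plus strand): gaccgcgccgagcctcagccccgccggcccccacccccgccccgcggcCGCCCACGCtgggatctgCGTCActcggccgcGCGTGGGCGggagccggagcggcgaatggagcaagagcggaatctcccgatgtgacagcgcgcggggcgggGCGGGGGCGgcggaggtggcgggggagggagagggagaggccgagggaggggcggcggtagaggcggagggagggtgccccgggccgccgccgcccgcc

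Nab1 had 4 EGR-site matches in its window, at 202 to 194, 170 to 162 and 99 to 91 bases before the start and 1 after it. Of all windows 4.98% held at least 1 such match and 0.705% held 2 or more. The motif can overlap the GC box, GGGCGG, which had 10 matches in the Nab1 window and at least 1 in 33.1% of all windows. The Nab2 window had no match to any motif searched. The ETS letters CCGGAA matched Egr2 alone among the 5 windows and 15% of all windows. That match lay at 179 to 174 bases before the start, away from the CArG box of Egr2 at 83 to 74. No other spelling of an ETS site was searched, so Egr1 is not shown to lack one. These matches describe letters only: no binding was measured, and a window without a match says nothing about sites elsewhere.

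**Figure D1:**
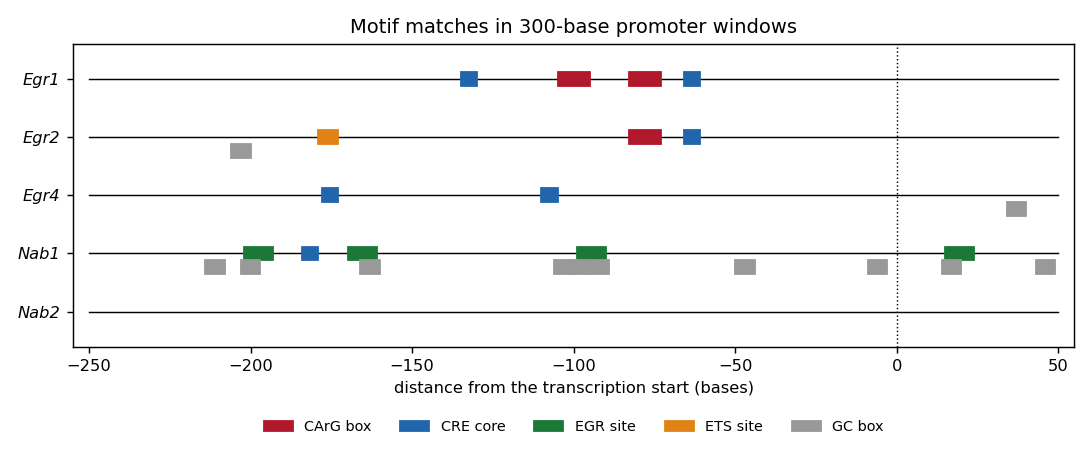
Motif matches in the 300-base RefSeq promoter windows of 5 genes, by distance in bases from the transcription start (dotted line); each box spans a match on either strand, with GC boxes drawn under the line. Egr1 and Egr2 share a CArG box at 83 to 74 bases before the start, and Nab1 holds 4 EGR-site matches. Egr4 has no exact CArG match, and near matches are not drawn.

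With curdlan, 4 of the 6 genes rose: Egr3, Egr2, Nab2 and Egr1, by 9.38-fold, 2.88-fold, 2.30-fold and 1.86-fold. The other two, Egr4 and Nab1, were not called, and 0 of 6 fell, also at an unadjusted p under 0.05. Over all probe sets 1.04% were called higher and 0.551% lower (limma, Benjamini-Hochberg adjusted p under 0.05). When R406 preceded curdlan, the same 4 genes were lower than with curdlan alone and 0 of 6 were higher. Of all probe sets 3.23% were called lower and 4.02% higher. At an unadjusted limma p under 0.05, 5 of the 6 genes were lower and 0 higher. Against unstimulated control, R406 plus curdlan gave 2 genes called lower, Egr1 and Egr3, and 0 higher. There 0.791% of all probe sets were called lower and 1.44% higher, and at an unadjusted limma p under 0.05, 4 of the 6 genes were lower and 0 higher. The 6 genes were chosen with earlier results of these data known, so these counts are no independent evidence of a direction. The median change of the 6 genes was 1.05 with curdlan, -1.89 under R406 against curdlan and -0.53 under R406 against control. Each pair of comparisons shares the arrays of 1 group, so a high or low value on those arrays enters both. RNA was taken in bulk, so a change in every cell and a change in the number of responding cells cannot be told apart.

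**Figure D2:**
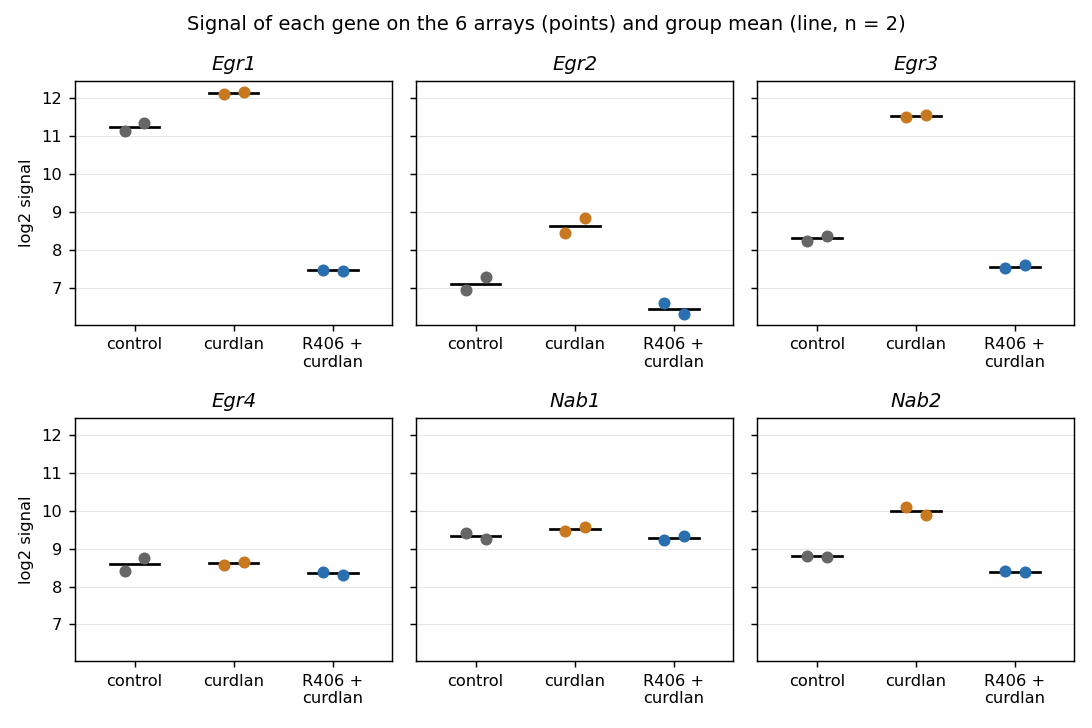
Log2 signal of the 6 genes on each of the 6 arrays (points, by group) with the group mean (line, n = 2). Egr1, Egr2, Egr3 and Nab2 were highest on the curdlan arrays and lowest on the R406 plus curdlan arrays, while the points of Egr4 and Nab1 stayed within 0.46 and 0.33 log2 units over the 6 arrays.

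Egr1, which encodes the founding EGR factor (probe set 10800919), had log2 signals of 11.14 and 11.35 in control arrays, 12.12 and 12.16 in curdlan arrays, and 7.48 and 7.44 in R406 plus curdlan arrays. The 3 groups did not overlap: the gene was already bright in unstimulated cells, brighter with curdlan and near the array median under R406. With curdlan it rose by 0.90 ± 0.0792 log2 units (SE, n = 2 per group; adjusted p = 0.0178). Under R406 it was 25.7-fold below curdlan alone, a change of -4.68 ± 0.0792 (adjusted p = 7.88e-05). It was also 13.8-fold below unstimulated control, a change of -3.78 ± 0.0792 with a 95% interval of -3.99 to -3.58 (adjusted p = 0.000513). Of the 29214 probe sets, 96 had a higher change than Egr1 with curdlan. In the comparison of R406 plus curdlan with control 0 had a lower change than Egr1, and 1 had a lower change in the comparison with curdlan. The rise with curdlan lost its call without any 1 of the 6 arrays, at adjusted p from 0.0525 without control replicate 2 to 0.138 without curdlan replicate 2. Both falls under R406 kept their calls in each of these 6 fits.

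Egr2 (Krox20, probe set 10832802), known for its part in myelination and in lymphocyte anergy, had signals of 6.94 and 7.28 in control, 8.44 and 8.83 in curdlan and 6.59 and 6.32 in R406 plus curdlan arrays. The groups did not overlap, but arrays of 1 group lay further apart than for any of the other five genes in the curdlan and R406 groups, with SDs of 0.276 and 0.19. Egr2 rose by 1.53 ± 0.187 log2 units with curdlan (adjusted p = 0.0374). Under R406 it fell by 2.18 ± 0.187 against curdlan alone, a 4.55-fold difference (adjusted p = 0.00614). Its means in control and R406 plus curdlan arrays, 7.11 and 6.45, lay below the array medians and are not shown to be above background, so both folds may understate the difference. Its difference between R406 plus curdlan and control was -0.66 ± 0.187, with a 95% interval of -1.13 to -0.18, and did not pass (adjusted p = 0.15). The curdlan call was lost without any 1 of the 6 arrays (adjusted p 0.0979 to 0.165), and the R406 call without R406 plus curdlan replicate 2 (adjusted p = 0.0575).

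Egr3 (probe set 10781337), a factor known for its role in muscle spindles and in T cell receptor signalling, had signals of 8.23 and 8.37 in control, 11.51 and 11.55 in curdlan and 7.51 and 7.61 in R406 plus curdlan arrays. Its curdlan arrays stood over 3 log2 units above control, the highest change among the 6 genes, and only 4 probe sets of the whole table rose more. The rise was 3.23 ± 0.0702 log2 units (adjusted p = 0.000547), and it fell by 3.97 ± 0.0702 under R406 against curdlan, a 15.7-fold difference (adjusted p = 7.88e-05). Both calls were kept without each array in turn. Against control, Egr3 under R406 fell by 0.74 ± 0.0702, a 1.67-fold difference with a 95% interval of -0.92 to -0.56 (adjusted p = 0.0182). That call was lost without any 1 of the 6 arrays (adjusted p 0.0582 to 0.147).

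Egr4 (NGFI-C, probe set 10863676), a family member studied mainly in neurons, had signals of 8.42 and 8.76 in control, 8.58 and 8.66 in curdlan and 8.39 and 8.31 in R406 plus curdlan arrays. Both curdlan arrays lay between the control arrays, and both R406 arrays lay below all others. Its change was 0.03 ± 0.121 with curdlan, with a 95% interval of -0.28 to 0.34 (adjusted p = 0.948). The upper end of that interval lies below the rise of Egr1, 0.90, the lowest among the EGR genes called. Its difference under R406 was -0.27 ± 0.121 against curdlan (adjusted p = 0.277) and -0.24 ± 0.121 against control (adjusted p = 0.34).

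Nab2, the inducible corepressor gene (probe set 10903166), had signals of 8.81 and 8.78 in control, 10.11 and 9.88 in curdlan and 8.42 and 8.38 in R406 plus curdlan arrays. The groups did not overlap, and the order was that of Egr1, Egr2 and Egr3: curdlan highest, control next, R406 plus curdlan lowest. Nab2 rose by 1.20 ± 0.0856 log2 units with curdlan (adjusted p = 0.00998) and fell by 1.60 ± 0.0856 under R406 against curdlan, a 3.02-fold difference (adjusted p = 0.00208). The difference from control under R406 was -0.40 ± 0.0856 and did not pass (adjusted p = 0.0931), although it passed with a prior variance that follows the mean signal (adjusted p = 0.0221) and when only the brighter probe sets, those over the median, were fitted (adjusted p = 0.028). The rise with curdlan lost its call without control replicate 1 or 2 (adjusted p = 0.096 and 0.119) and without R406 plus curdlan replicate 1 or 2 (adjusted p = 0.0549 each), and kept it without either curdlan array. The fall against curdlan passed in each of the 6 fits.

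Nab1, the corepressor gene usually described as constitutive (probe set 10923198), had signals of 9.41 and 9.26 in control, 9.48 and 9.56 in curdlan and 9.23 and 9.33 in R406 plus curdlan arrays. The control and R406 arrays overlapped, and the curdlan arrays lay just above both. The change with curdlan was 0.18 ± 0.0756, with a 95% interval of -0.01 to 0.38 (adjusted p = 0.372). Under R406 it was -0.23 ± 0.0756 against curdlan (unadjusted p = 0.0257, adjusted p = 0.157) and -0.05 ± 0.0756 against control (adjusted p = 0.742), by the limma fit over all probe sets.

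**Figure D3:**
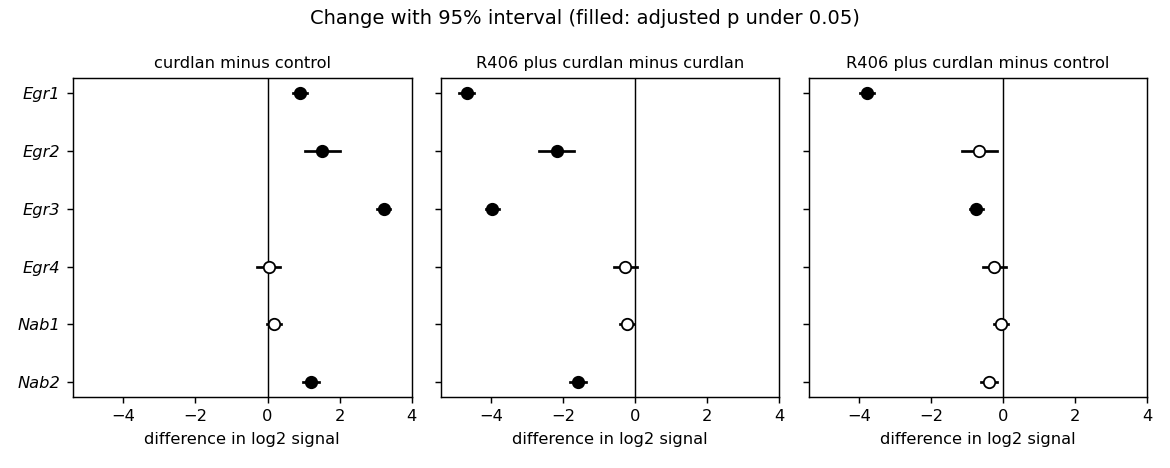
Difference in log2 signal of the 6 genes in the 3 comparisons, with 95% intervals from limma; filled points have an adjusted p under 0.05. Egr3 has the highest change with curdlan (3.23) and Egr1 the lowest under R406, both against curdlan (-4.68) and against control (-3.78).

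Side by side, the changes under R406 relative to unstimulated cells start from different control levels, 11.24 for Egr1, 8.30 for Egr3, 8.79 for Nab2 and 7.11 for Egr2, so the room to fall differed. The 95% interval of Egr1 in that comparison, -3.99 to -3.58, lay below those of Egr3 (-0.92 to -0.56), Egr2 (-1.13 to -0.18) and Nab2 (-0.61 to -0.18), while with curdlan the interval of Egr1 (0.70 to 1.10) lay below that of Egr3 (3.05 to 3.41). The difference between genes was not tested, and under R406 the mean signals of Egr1, Egr3 and Egr2 (7.46, 7.56 and 6.45) lay near or below the array medians, where no detection call separates them from background. Because no array of R406 alone was analysed here, an effect of R406 on unstimulated cells and an effect on the response to curdlan cannot be told apart, nor can Syk from other kinases that R406 may inhibit.

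**Figure D4:**
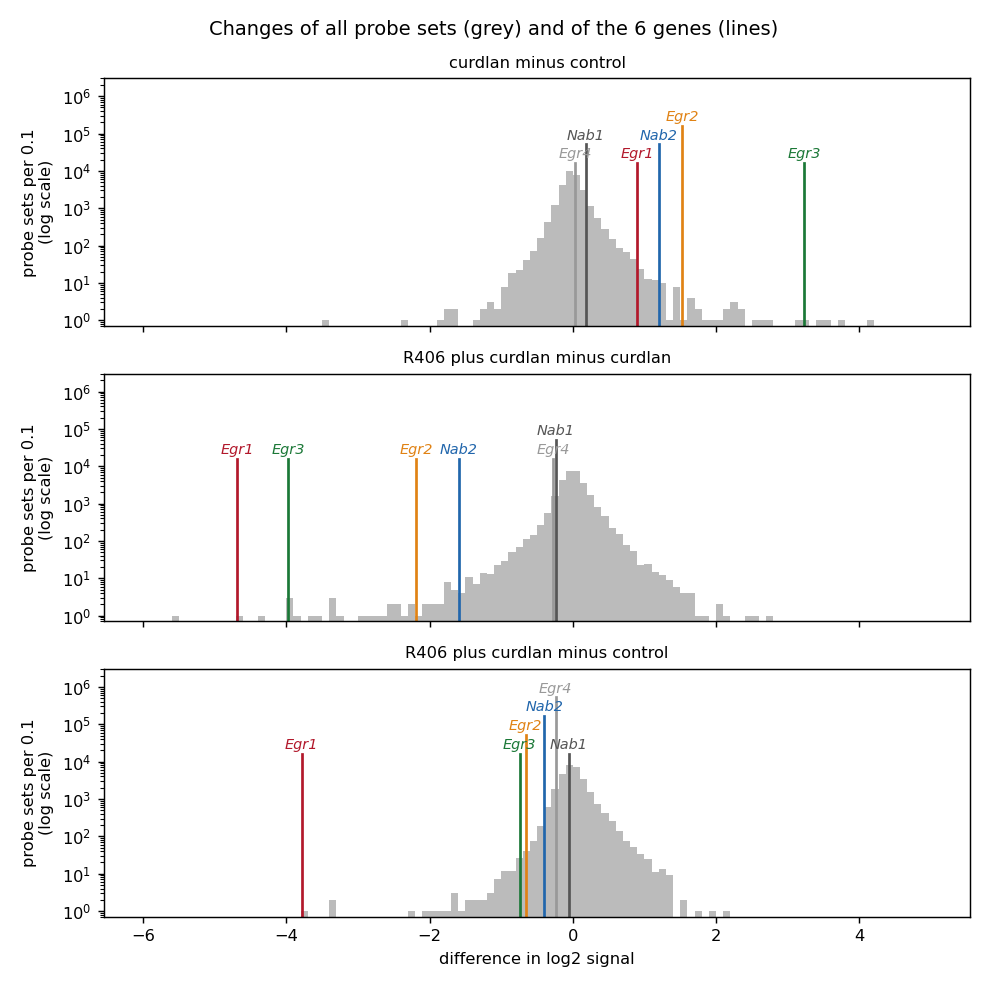
Distribution of the changes of all 29214 probe sets (grey bars, probe sets per 0.1 log2 units, log scale) with the 6 genes as coloured lines, for each comparison; line height only separates the labels. Egr4 and Nab1 have the smallest changes of the 6 genes in each comparison, between -0.27 and 0.18. With curdlan 10141 and 2794 probe sets had a higher change than Egr4 and Nab1. For R406 plus curdlan against curdlan 1667 and 2252 had a lower one. Egr1 lies beyond every other probe set in the comparison of R406 plus curdlan with control.

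Patterns were also compared over the 6 arrays by the root mean squared distance between log2 values, each gene centred on its own mean. Among the 6 genes, Egr4 and Nab1, neither of them called, were nearest at 0.174, although 6879 other genes lay nearer to Egr4 and 10059 nearer to Nab1. Of the genes called, Egr2 and Nab2 were nearest at 0.326. Of 14505 other genes, 6 lay nearer to Egr2 than Nab2 did, and 39 lay nearer to Nab2 than Egr2 did. Egr1 lay 1.30 from Egr3, its nearest relative, with 12 genes nearer to Egr1 and 51 nearer to Egr3. The 3 genes nearest to Egr1 over all named genes were the ERK phosphatase gene Dusp6 at 0.303, the proto-oncogene Myc at 0.326 and the polo-like kinase gene Plk3 at 0.678. Dusp6 and Myc shared its profile of a rise with curdlan (0.63 and 0.55) and a level under R406 far below control (-3.34 and -3.38). Nearest to Egr2 were the AP-1 gene Junb at 0.239, the oxysterol receptor gene Gpr183 at 0.243 and the TWEAK receptor gene Tnfrsf12a at 0.252. Nearest to Egr3 were the chemokine gene Ccl2 at 0.234, the orphan nuclear receptor gene Nr4a3 at 0.25 and the cytokine gene Il13 at 0.275, which rose by 3.77, 3.48 and 3.15 with curdlan. Nearest to Nab2 were Nipal1 at 0.0941, Prag1 at 0.107 and Gpr183 at 0.121. All these genes were read on the same 6 arrays in 3 groups, so the distances mainly compare 3 group means.

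**Figure D5:**
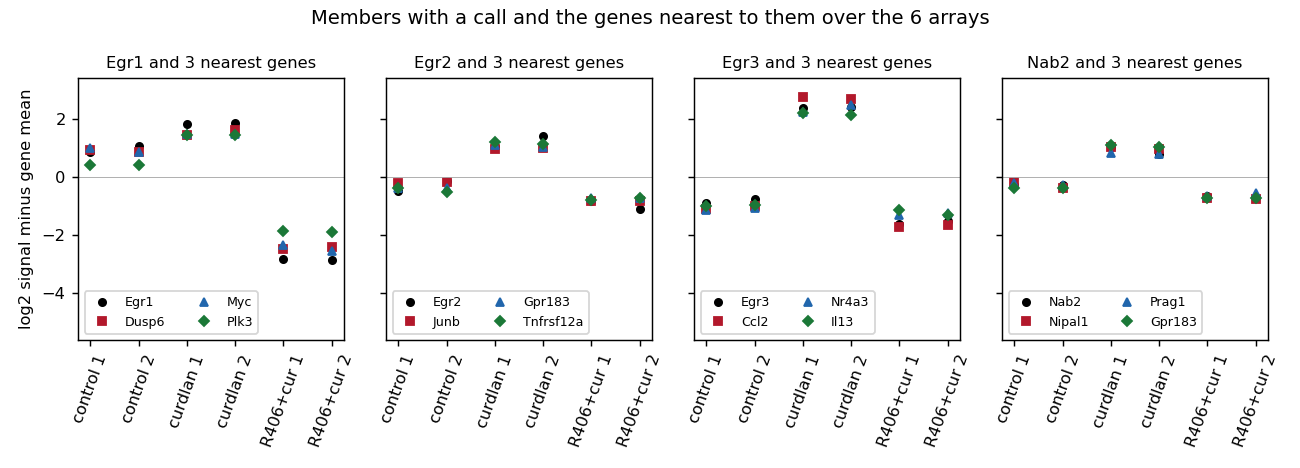
Log2 signal minus the gene's mean over the 6 arrays, for the 4 genes with a call (black) and the 3 named genes nearest to each. Egr1, Dusp6 and Myc are high in control and curdlan and fall under R406, whereas Egr3 and its nearest genes stand out on the curdlan arrays.

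Genes around the EGR loop were read from lists that were chosen with earlier results of these data known. The counts stand against the shares of all probe sets called: 1.04% higher and 0.551% lower with curdlan, 4.02% higher and 3.23% lower under R406 against curdlan, and 1.44% higher and 0.791% lower against control. Of 8 measured serum response and CREB factors, 1 rose with curdlan, and the list's median change was 0.06 against -0.01 for all probe sets. It was Srf, which encodes serum response factor itself, at 0.73 ± 0.0509 (adjusted p = 0.00988). Under R406, Srf fell by 1.17 ± 0.0509 against curdlan (adjusted p = 0.00118) and fell by 0.44 ± 0.0509 against control (adjusted p = 0.0266), and Crem, a cyclic AMP response gene, fell by 0.35 ± 0.0629 against curdlan (adjusted p = 0.0386). The median of these 8 genes was -0.05 against curdlan and -0.04 against control. Elk1, Elk3 and Elk4, the ETS cofactors of SRF, were not called in any comparison, with changes of 0.12, 0.00 and 0.19 with curdlan. The fall of Srf against curdlan was kept without each array in turn. Its rise and its fall against control lost their calls without any 1 of the 6 arrays (adjusted p 0.0578 to 0.092 and 0.0623 to 0.203), as did the fall of Crem (0.068 to 0.19).

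Of 12 other serum response targets 1 rose with curdlan, Junb at 1.16 ± 0.0462 (adjusted p = 0.00215), and the list's median change was 0.04. Under R406 4 of 12 fell against curdlan (3.23% of all probe sets; 2 to 6 genes over the alternatives), with a list median of -0.17: Junb at -1.79 ± 0.0462, the immediate early gene Ier2 at -1.03 ± 0.0669, the AP-1 gene Fos at -0.75 ± 0.119 and the cytoskeletal gene Vcl at -0.45 ± 0.053, with adjusted p between 0.000292 and 0.029. Against control 2 fell, Junb at -0.63 ± 0.0462 and Ier2 at -0.63 ± 0.0669 (adjusted p = 0.011 and 0.0228), with a list median of -0.12. The actin genes Actb and Actg1, at 0.00 and 0.06 with curdlan, were not called. The calls of Junb with curdlan and of Junb and Ier2 against curdlan were kept without each array in turn. Those of Fos were lost without either curdlan or either R406 plus curdlan array, that of Vcl without curdlan replicate 2 or either R406 plus curdlan array, that of Junb against control without either control or either R406 plus curdlan array, and that of Ier2 against control without any 1 of the 6 (highest adjusted p of 0.139, 0.109, 0.147 and 0.163).

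Of 19 measured genes of a list on Syk and ERK signalling, which also holds Card9 and kinases that ERK activates, 0 were called with curdlan (limma; 2 higher and 2 lower at an unadjusted p under 0.05), and the list median was -0.02. Syk itself had mean signals of 9.14, 9.02 and 9.09 in control, curdlan and R406 plus curdlan arrays and was not called, and Clec7a, the Dectin-1 gene, had 7.07, 7.22 and 7.12, near the array medians in every group. This probe set thus does not show the introduced receptor. Under R406 2 of the 19 rose (4.02% of all probe sets against curdlan, 1.44% against control), the exchange factor gene Sos1 and Rps6ka5, a kinase gene that acts after ERK, at 0.22 ± 0.0425 and 0.48 ± 0.0578 against curdlan (adjusted p = 0.0465 and 0.0134) and at 0.46 ± 0.0425 and 0.42 ± 0.0578 against control (adjusted p = 0.0171 and 0.0395). The list medians were 0.03 and -0.02. The call of Rps6ka5 against curdlan was lost without either curdlan or either R406 plus curdlan array (highest adjusted p = 0.103), and the other three calls without any 1 of the 6 arrays (adjusted p from 0.0568 to 0.235).

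Of 11 measured subunits of NuRD, the chromatin remodelling complex that NAB proteins recruit, 0 were called with curdlan and 0 for R406 plus curdlan against control (limma; 1 higher at an unadjusted p under 0.05 in each). Gatad2b rose by 0.26 ± 0.0501 under R406 against curdlan (adjusted p = 0.0457), a call lost without any 1 of the 6 arrays (adjusted p 0.0711 to 0.242). The list medians were -0.04 with curdlan, -0.01 against curdlan and -0.04 against control. Chd4 and Mta3 were also listed but had no single-symbol probe set, so they were not read.

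Of 31 measured genes that other work describes as EGR targets, 5 rose and 1 fell with curdlan (1.04% and 0.551% of all probe sets), with a list median of 0.03. This list too was chosen with earlier results of these data known, so its counts are no independent evidence of a direction, and over the alternatives 1 to 9 rose. The risers were Il13 at 3.15 ± 0.0675, Tnf at 1.40 ± 0.0763, Gadd45b at 0.75 ± 0.0921, Icam1 at 0.57 ± 0.06 and Dusp4 at 0.49 ± 0.0463, and Vegfa fell by 0.72 ± 0.0428. They encode a type 2 cytokine, an inflammatory cytokine, a stress-response protein, an adhesion molecule, a MAP kinase phosphatase and an angiogenic factor. Under R406 8 fell and 2 rose against curdlan (3.23% and 4.02% of all probe sets; 5 to 11 and 0 to 2 genes over the alternatives), with a list median of -0.05. Il13 changed by -3.38 ± 0.0675, Tnf by -2.70 ± 0.0763, Dusp4 by -2.52 ± 0.0463 and the growth-arrest gene Gadd45a by -1.25 ± 0.0487, and the other four, Icam1, Cdkn1a, Gadd45b and Vegfa, by -0.86, -0.74, -0.60 and -0.26 (adjusted p = 0.00376, 0.00754, 0.0266 and 0.0318). The genes that rose were the pro-apoptotic Bcl2l11 at 0.46 ± 0.0729 and the ubiquitin ligase gene Cblb at 0.32 ± 0.0521. Against control 4 fell and 1 rose, with a list median of -0.06: Dusp4 at -2.03 ± 0.0463, Tnf at -1.30 ± 0.0763, Gadd45a at -1.03 ± 0.0487 and Vegfa at -0.98 ± 0.0428, and Bcl2l11 at 0.66 ± 0.0729.

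Of these target genes, Il13 with curdlan, Il13, Tnf, Dusp4, Gadd45a and Icam1 against curdlan, and Dusp4 against control kept their calls without each array in turn. With curdlan, Tnf and Vegfa lost theirs without either control or either curdlan array (highest adjusted p = 0.0696 and 0.0756), and Gadd45b, Icam1 and Dusp4 without any 1 of the 6. Against curdlan, Bcl2l11 lost its call without either curdlan or either R406 plus curdlan array and Cblb without any 1 of the 6 (highest adjusted p = 0.17 and 0.187). In that comparison Cdkn1a lost its call without curdlan replicate 1 or either R406 plus curdlan array, Gadd45b without either curdlan or either R406 plus curdlan array and Vegfa without any 1 of the 6 (highest adjusted p = 0.0744, 0.149 and 0.187). Against control, Tnf lost its call without either control array, Gadd45a and Vegfa without either control or either R406 plus curdlan array, and Bcl2l11 without any 1 of the 6 (highest adjusted p = 0.0844, 0.091, 0.0873 and 0.194).

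The genes that lie next to the 6 members on the chromosome were read as well. Of the nearest protein-coding RefSeq genes on either side, 9 had a probe set of their own symbol: Reep2 and Etf1 beside Egr1, Ado and Nrbf2 beside Egr2, Bin3 beside Egr3, Fbxo41 and Alms1 beside Egr4, Nemp2 beside Nab1 and Stat6 beside Nab2. None of the 9 was called in any of the 3 comparisons by limma. The highest change in size was 0.21 ± 0.047 for Stat6, which encodes the IL-4 signal transducer, under R406 against control (adjusted p = 0.0973).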

How the data were processed

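The values deposited by the authors are 1 log2 signal for each probe set on each of 6 arrays (3 groups of 2). Expression Console, an Affymetrix program, made them per the submitters' processing notes. Its version, its settings and the build stay unnamed in the sources used here. That the log is to base 2 was read from the range of the values. If arrays were scaled to each other, a shift shared by most transcripts would be hidden. No detection call was used. Within groups the arrays correlated at 0.9975 to 0.9981, with at most 39 identical values in a pair, so none was counted as a duplicate. The number of arrays limits precision.

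One limma model over the 6 arrays, with group as its factor, gave every test (R 4.3.3, limma 3.58.1, lmFit and eBayes, no filter, 3 residual and 2.16 prior degrees of freedom). Calls were made at an adjusted p under 0.05, by Benjamini-Hochberg across 29214 probe sets. The platform annotation paired 15310 probe sets with a single symbol, 323 with several and 13581 with none. Symbols were updated by Entrez ID through RefSeq. A listed gene was read from its single-symbol probe set with the highest mean.

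Named from each list were the 4 called genes with the largest change per comparison and direction, and the 3 nearest genes for each of the 6 that was called. Dusp4 with curdlan, the other four target genes that fell against curdlan, the ELK and actin genes and the chromosomal neighbours were named after their values were seen. The 6 genes and all lists were chosen with earlier results of these data known. The fit was tested on simulated data. Alternatives were quantile normalization, median centring, a signal filter, a prior variance following the mean, only the 4 arrays compared, a replicate block, a threshold of 0.01 and each array left out.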

Additional observations from a re-analysis of the deposited data

How the results depend on the processing

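Under the 12 alternatives to the fit, the changes of Egr1, Egr2, Egr3 and Nab2 kept their direction in each comparison, and the calls of Egr3 with curdlan, of Egr1, Egr3 and Nab2 for R406 plus curdlan against curdlan, and of Egr1 against control were kept in all 12. Egr4 with curdlan changed by -0.14 without control replicate 1, by -0.01 when curdlan replicate 2 was left out, and Nab1 between R406 plus curdlan and control by 0.024 without control replicate 1, against 0.03 and -0.05 with all arrays. None of these was called, and the cause was not tested. Without each array in turn, the change with curdlan ranged from 0.795 to 1.001 for Egr1, 1.33 to 1.72 for Egr2, 1.08 to 1.32 for Nab2 and -0.14 to 0.20 for Egr4. Against curdlan, Egr2 under R406 ranged from -2.38 to -1.99. Against control, Egr3 ranged from -0.81 to -0.67 and Nab1 from -0.13 to 0.024. With fewer arrays there are fewer degrees of freedom: of the 6 genes, 1 to 2 were then called with curdlan, 3 to 4 for R406 plus curdlan against curdlan and 1 against control. With only the 4 arrays compared, Egr1 at 0.90, Egr2 at 1.53 and Nab2 at 1.20 with curdlan and Egr3 at -0.74 against control lost their calls (adjusted p = 0.0789, 0.106, 0.0549 and 0.0582), leaving 1 gene called in each. With the replicate block, Egr1 at 0.90, Egr2 at 1.53 and Egr3 at -0.74 lost theirs (adjusted p = 0.0672, 0.103 and 0.0513), leaving 2 genes called with curdlan and 1 against control. Deviations of same-numbered arrays correlated at -0.115 (control and curdlan), -0.00454 (control and R406 plus curdlan) and 0.113 (curdlan and R406 plus curdlan). The labels do not say whether same-numbered arrays share a culture or day. With 2 arrays per group these correlations cannot decide it. Nab2 against control, -0.40, was called with a prior variance following the mean and with the signal filter.

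Probe sets called over the whole table were 465 with curdlan, 2118 for R406 plus curdlan against curdlan and 652 against control. In the same order they were 78, 561 and 66 at an adjusted p under 0.01, 68, 1232 and 182 with only the 4 arrays compared, and 102, 1129 and 62 with the replicate block. With a prior variance following the mean they were 1557, 3767 and 2341, and with the signal filter 1572, 3717 and 2278. Without each array in turn they ranged from 32 to 68, 210 to 1232 and 15 to 182. Each gene had 1 single-symbol probe set, so another probe set could not be tried. Without detection calls, low signals such as those under R406 are not separated from background.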
